A study of Homo sapiens with 6 samples.

Results

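The ID genes (ID1, ID2, ID3 and ID4) and 6 genes that restrain signalling by bone morphogenetic proteins (BMP) and transforming growth factor beta (TGF-beta) were followed in SK-N-BE(2), an established human neuroblastoma cell line in which MYCN is amplified. The 6 are SMAD6, SMAD7, BAMBI, SKI, SKIL and TGIF1. The 10 genes were taken by name from the 35130 gene names of the expression tables, and all 10 were found and passed the filter on low values (1 TPM or more on average; TPM is transcript abundance scaled by length and library total). RNA was sequenced from 3 dishes given DMSO, the solvent, and from 3 dishes given 1 µM NEN, each for 24 h, and the labels call the dishes of a group biological replicates. NEN is given in the labels by abbreviation only. Niclosamide ethanolamine, a mitochondrial uncoupler, is what the abbreviation stands for in neuroblastoma work, taken here as background. All cells came from 1 established line derived from bone marrow, with no animal or donor replication, and the controls received DMSO in place of NEN.

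BMP and TGF-beta ligands bring type I and type II receptor kinases together, and the type I receptor then phosphorylates SMAD proteins, which enter the nucleus with SMAD4. The BMP arm uses SMAD1, SMAD5 and SMAD9, and the TGF-beta and activin arm uses SMAD2 and SMAD3. The ID genes and SMAD6 are classic targets of the BMP arm, SMAD7 is induced by both, and the inhibitory SMADs close a feedback loop on the receptors. ID proteins carry a helix-loop-helix domain but no DNA-binding basic region, so they capture the E proteins that neuronal and neural crest bHLH factors need as partners. In neuroblastoma ID2 has been studied as a partner of RB1 and as a gene linked to MYCN.

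NEN-treated cells held more mRNA of 3 of the 4 ID genes and of both inhibitory SMADs, and less of ID4 and of the decoy receptor BAMBI. ID1 changed most, to 2.15 times its DMSO mean, while ID2 and ID3 reached 1.19 and 1.24 times theirs. SMAD6 and SMAD7 reached 1.55 and 1.51 times, ID4 went to 0.529 times and BAMBI to 0.730 times. SKI, SKIL and TGIF1, which act on SMADs in the nucleus, did not pass the test. Thus 7 of the 10 genes passed an adjusted p of 0.05 in limma on log2(TPM + 1), against 30.0% of the 12576 genes tested. Of these, 5 rose, against 13.5% of all genes tested, and 2 fell, against 16.5%. The same 7 genes had groups that did not overlap, against 46.8% of genes tested, with NEN higher for 5 (21.8% of all) and lower for 2 (25.0% of all). Differences are the NEN mean less the DMSO mean in log2(TPM + 1), which understates changes of low genes, and their median was 0.278 over the 10 genes and -0.025 over all genes tested.

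**Figure D1:**
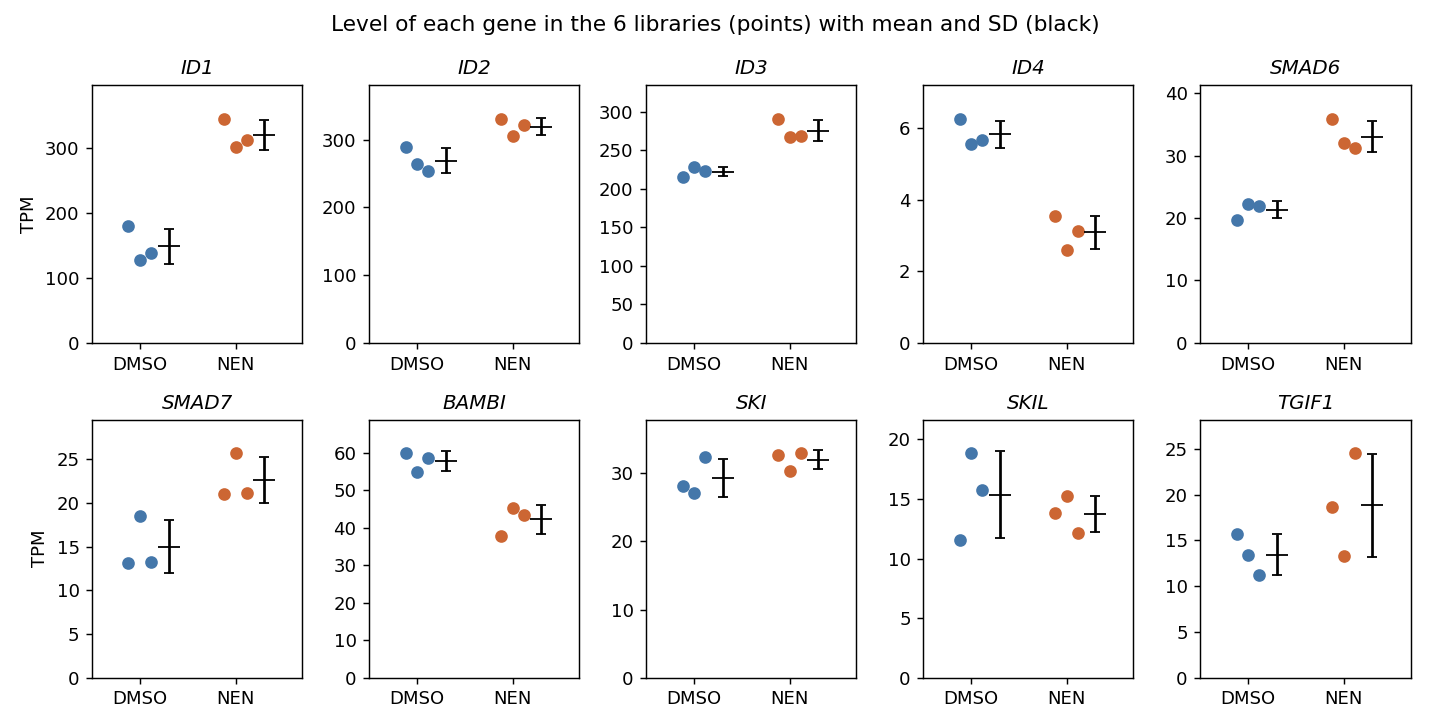
Level of each of the 10 genes in TPM (vertical axes, from 0) in the 3 DMSO libraries (blue points) and the 3 NEN libraries (orange points), with the mean and SD of each group in black. The groups are apart for the ID genes, SMAD6, SMAD7 and BAMBI and overlap for SKI, SKIL and TGIF1.

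The depth of sequencing cannot be read from TPM, and counting error is therefore not given. Each library correlated better with its own group (mean r of 0.976 to 0.980 over tested genes) than with the other (0.957 to 0.963), so no library stood apart from its label. All 9 neuroblastoma markers looked at were above the filter, with sums between 4942 and 5817 TPM in DMSO libraries and between 5975 and 6232 TPM after NEN. PTPRC and the other blood cell markers, 8 in all, were each below a mean of 1 TPM, with sums of 0.150 to 2.31 TPM, and 3 of them were at 0 in all 6 libraries. The 8 endothelial and epithelial markers summed to between 5.53 and 6.51 TPM in DMSO libraries and between 5.40 and 11.6 TPM after NEN, 5 of them were below a mean of 1 TPM, and none of the 3 tested was called. Stromal markers summed to between 24.6 and 28.7 TPM in DMSO libraries and between 37.9 and 43.5 TPM after NEN. The sum was higher after NEN, like ID1, while its members were split. Of the 8 stromal markers 6 were tested: PDGFRB and ACTA2 rose, and COL1A1 (-0.05), COL1A2 (-0.49), DCN (-0.34) and PDGFRA (-0.46) had differences below 0 and did not pass, with a median of -0.194 over the 6. COL3A1 and LUM were below a mean of 1 TPM. The part of stromal transcripts in the results was not tested. In bulk RNA, fewer cells with a transcript and less transcript per cell cannot be told apart.

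ID1, the BMP target most often used as a readout of the pathway, stood at 179.7, 127.9 and 139.0 TPM in DMSO replicates 1 to 3 and at 345.4, 302.3 and 312.3 TPM in the NEN replicates. Every NEN library was above every DMSO library, with a wide gap between 179.7 and 302.3 TPM. Its difference was 1.11 ± 0.12 (SE; limma adjusted p = 0.00123), larger than that of 98.7% of genes tested. The DMSO libraries were the less even group, with an SD of 18.3% of the mean against 7.05% in NEN.

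ID2, whose protein can also bind RB1, stood at 289.3, 264.1 and 253.3 TPM in DMSO and 331.2, 305.4 and 321.3 TPM in NEN libraries. The groups came close without overlapping, since the lowest NEN library was at 305.4 TPM and the highest DMSO library at 289.3 TPM. The difference was 0.25 ± 0.06 (limma adjusted p = 0.0263), and adjusted p ranged from 0.00745 to 0.0885 over the alternatives. The call was lost without DMSO replicate 2 (0.24) or 3 (0.21), or without NEN replicate 1 (0.22) or 3 (0.24), and with no filter (adjusted p = 0.0538) or plain limma settings (adjusted p = 0.0766). ID2 has an antisense neighbour, ID2-AS1, whose exons overlap it in GENCODE release 29, and the sources used here do not say whether counting used strand.

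ID3, also BMP-responsive, was even within groups, at 215.7, 227.9 and 223.6 TPM in DMSO and 291.3, 267.2 and 268.1 TPM in NEN. It rose by 0.31 ± 0.06 (limma adjusted p = 0.00671). ID4, which is known mostly from neural progenitors, was scarce. It stood at 6.27, 5.56 and 5.67 TPM in DMSO and 3.54, 2.60 and 3.12 TPM in NEN, with no overlap. Its difference was -0.75 ± 0.15 (limma adjusted p = 0.00952), lower than that of all but 4.8% of genes tested. The direction of ID4 was thus opposite to that of the other 3 ID genes.

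The make-up of ID mRNA differed between the groups. The 4 genes summed to 690.9, 625.5 and 621.5 TPM in DMSO and 971.5, 877.6 and 904.9 TPM in NEN libraries. ID1 held 22.9% ± 2.8 (SD, n = 3) of this sum in DMSO and 34.8% ± 0.62 in NEN, while ID2 went from 41.6% ± 0.76 to 34.8% ± 0.71. ID3 held 34.5% ± 2.9 and 30.0% ± 0.41, and ID4 0.903% ± 0.012 and 0.335% ± 0.035. In DMSO the order was ID2, ID3, ID1, ID4 in every library. In NEN, ID1 and ID2 were level at 320.0 ± 22.6 and 319.3 ± 13.0 TPM and did not differ beyond their spread, with ID3 next at 275.6 ± 13.6 TPM.

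**Figure D2:**
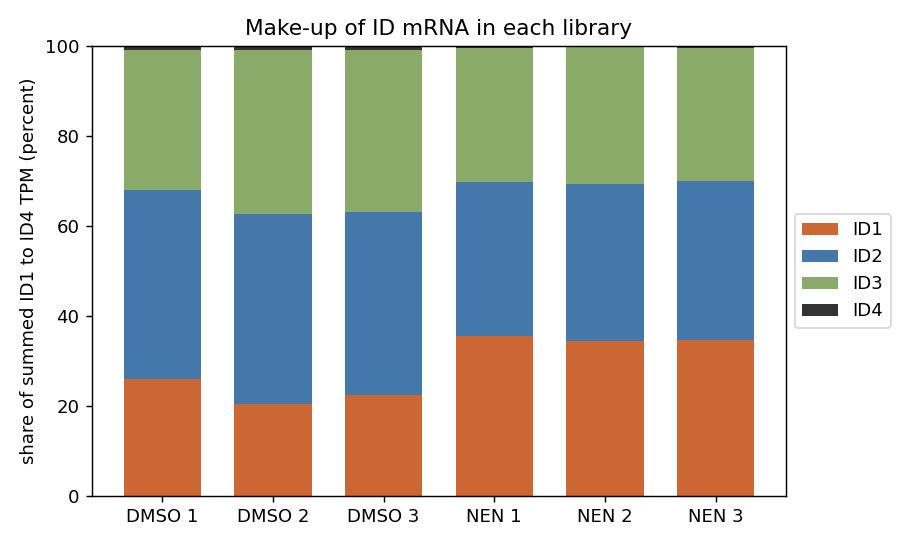
Share of the summed TPM of ID1 to ID4 (vertical axis, percent) held by each gene in the 3 DMSO and 3 NEN libraries (bars). The ID1 band lies between 20.5% and 26.0% in DMSO libraries and between 34.5% and 35.6% after NEN.

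Ratios within a library do not depend on how libraries are scaled, so 5 pairs were compared as log2 ratios of TPM. The ID1/ID2 ratio was -0.69, -1.05 and -0.87 in DMSO and 0.06, -0.02 and -0.04 in NEN, a difference of 0.87. The ID1/ID3 ratio differed by 0.81, from -0.59 ± 0.30 to 0.22 ± 0.03 (SD, n = 3). For both pairs the groups did not overlap, and the exact two-sided permutation p was 0.1 (0.25 adjusted over the 5 pairs), the smallest that 3 against 3 libraries allow. ID2/ID3 differed by -0.06 (exact permutation p = 0.7), SMAD6/SMAD7 by 0.03 (exact permutation p = 0.8) and SKI/SKIL by 0.27 (exact permutation p = 0.5), or by 0.06 without DMSO replicate 2, 0.17 without NEN replicate 3 and 0.44 without DMSO replicate 1.

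SMAD6, which blocks type I BMP receptors and SMAD1, stood at 19.7, 22.2 and 22.0 TPM in DMSO and 35.9, 32.0 and 31.2 TPM in NEN libraries. It rose by 0.61 ± 0.09 (limma adjusted p = 0.00338), and adjusted p stayed between 0.00217 and 0.0185 over the alternatives. SMAD7, which blocks receptors of both arms and recruits ubiquitin ligases to them, stood at 13.2, 18.5 and 13.3 TPM in DMSO and 21.0, 25.7 and 21.1 TPM in NEN. DMSO replicate 2 and NEN replicate 2 were each the highest of their group for SMAD7. Its difference was 0.57 ± 0.15 (limma adjusted p = 0.0285), with adjusted p between 0.0131 and 0.0912 over the alternatives. The SMAD7 call was lost without DMSO replicate 1 (0.49) or 3 (0.50), without NEN replicate 1 (0.62), 2 (0.48) or 3 (0.62), and with no filter (adjusted p = 0.0637).

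BAMBI encodes a membrane protein shaped like a type I receptor but without a kinase, which makes it a decoy, and it is itself a target of BMP, TGF-beta and Wnt signals. It stood at 59.8, 54.9 and 58.6 TPM in DMSO and 37.9, 45.2 and 43.5 TPM in NEN libraries. BAMBI fell by 0.45 ± 0.09 (limma adjusted p = 0.00795), and all 15 alternatives kept the fall past the threshold. Among the 3 feedback inhibitors that act at the receptor, SMAD6 and SMAD7 were thus higher and BAMBI lower in NEN-treated cells.

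The 250 bases before the annotated start of 9 of the 10 genes were available from RefSeq (GRCh38.p14), and 4 are shown because these genes moved in opposite directions: ID1, SMAD6 and SMAD7 rose and BAMBI fell. Capitals mark matches, on either strand, to 3 motifs: the palindromic SMAD-binding element GTCTAGAC, the single SMAD box CAGAC and the GC-rich element GGCGCC, none of which contains another. They are listed 5′ to 3′ on the strand of the gene: ID1 at chr20:31605039-31605288 (plus), SMAD6 at chr15:66701986-66702235 (plus), SMAD7 at chr18:48950966-48951215 (minus) and BAMBI at chr10:28677271-28677520 (plus).
ID1: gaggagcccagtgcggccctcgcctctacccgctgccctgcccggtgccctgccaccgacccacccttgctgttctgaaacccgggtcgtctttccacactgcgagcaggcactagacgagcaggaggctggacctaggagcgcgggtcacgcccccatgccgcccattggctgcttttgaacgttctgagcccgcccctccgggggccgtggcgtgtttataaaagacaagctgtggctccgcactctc
SMAD6: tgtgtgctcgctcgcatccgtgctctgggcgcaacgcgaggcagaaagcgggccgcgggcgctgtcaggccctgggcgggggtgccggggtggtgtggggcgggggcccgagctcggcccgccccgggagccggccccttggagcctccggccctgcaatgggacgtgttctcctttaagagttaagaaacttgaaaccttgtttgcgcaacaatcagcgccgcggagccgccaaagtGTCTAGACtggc
SMAD7: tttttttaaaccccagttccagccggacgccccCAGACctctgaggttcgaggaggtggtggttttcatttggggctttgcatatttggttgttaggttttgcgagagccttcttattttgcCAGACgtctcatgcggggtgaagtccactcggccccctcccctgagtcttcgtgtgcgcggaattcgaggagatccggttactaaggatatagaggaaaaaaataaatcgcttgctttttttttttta
BAMBI: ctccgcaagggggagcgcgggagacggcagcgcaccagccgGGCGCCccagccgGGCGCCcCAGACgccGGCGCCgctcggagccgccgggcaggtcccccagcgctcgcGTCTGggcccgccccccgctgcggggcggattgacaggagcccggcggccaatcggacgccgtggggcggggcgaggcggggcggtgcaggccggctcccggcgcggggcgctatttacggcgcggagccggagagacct
SMAD6 was the only one of the 9 with GTCTAGAC, its first base 12 bases before the start, a motif held by 0.182% of 35116 RefSeq promoters of this length. BAMBI held GGCGCC at 3 places, a motif in 16.4% of promoters, and SKIL held it at 1. CAGAC, present in 38.0% of promoters, was found in 6 of the 9, among them ID3, ID4, SMAD7 and BAMBI. ID1 and ID2 held none of the 3 motifs in this window. These matches describe the letters of the windows, whose build differs from the hg19 build named for the expression files. For the 9 genes, bases outside these windows were not searched, so a gene without a match here may hold the motif elsewhere.

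SKI, a corepressor that binds SMADs and SMAD4, stood at 28.2, 27.2 and 32.4 TPM in DMSO and 32.7, 30.4 and 33.0 TPM in NEN libraries. The groups overlapped, and the difference was 0.13 ± 0.09 (limma adjusted p = 0.330) with a 95% interval of -0.085 to 0.339. SKIL, which encodes the related corepressor SnoN, stood at 11.6, 18.8 and 15.7 TPM in DMSO and 13.8, 15.2 and 12.2 TPM in NEN. All NEN values fell inside the DMSO range, and the difference of -0.13 ± 0.18 (limma adjusted p = 0.611) had a 95% interval of -0.548 to 0.282. The sign of SKIL turned without DMSO replicate 2 (0.02), and that of SKI turned after correction for transcript length and GC content (-0.07).

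TGIF1, a homeodomain protein that recruits corepressors to SMAD2 and SMAD3, stood at 15.7, 13.4 and 11.2 TPM in DMSO and 18.7, 13.3 and 24.5 TPM in NEN libraries. Of the 10 genes it had the widest NEN group, with an SD of 29.8% of the mean, and NEN replicate 2 lay inside the DMSO range. The difference was 0.43 ± 0.22 (limma adjusted p = 0.179) with a 95% interval of -0.081 to 0.941. Without NEN replicate 2 it was 0.65 and passed the threshold (adjusted p = 0.0496), and without NEN replicate 3 it was 0.23 (adjusted p = 0.450), the ends of the range over the alternatives.

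**Figure D3:**
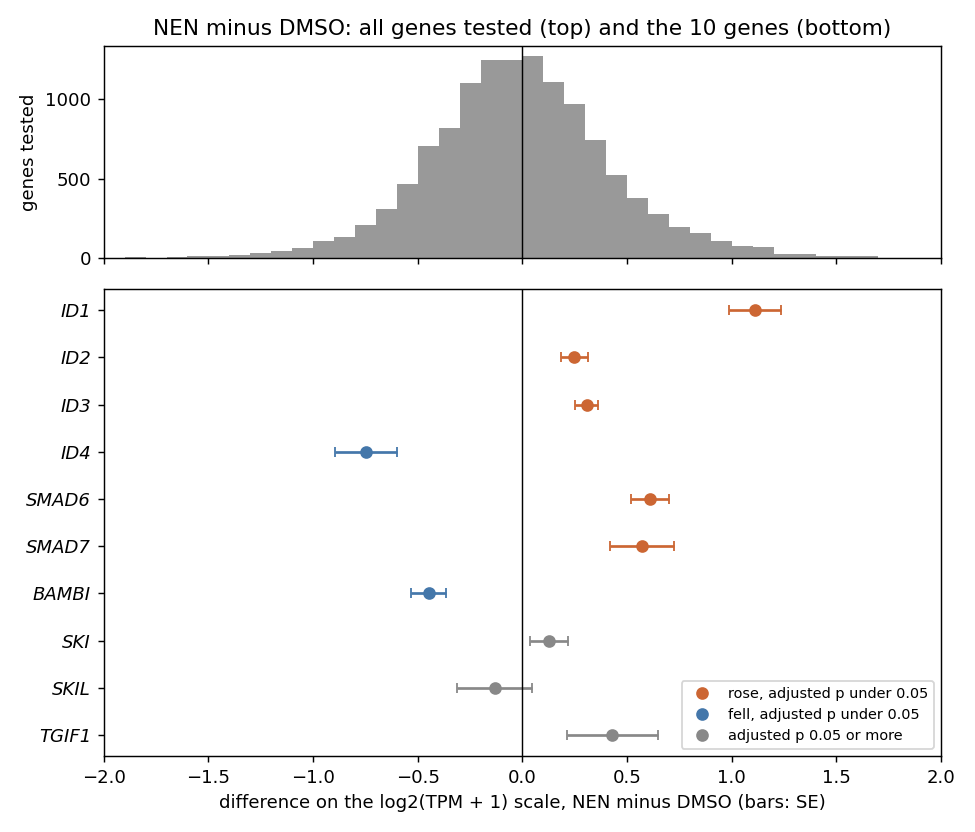
Top, number of tested genes (vertical axis) by difference, the NEN mean less the DMSO mean in log2(TPM + 1) (horizontal axis, which leaves out 11 genes above 2 and 20 below -2). Bottom, the difference of each of the 10 genes with its SE; ID1 lies farthest to the right (1.11) and ID4 farthest to the left (-0.75).

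By level, the members were spread widely on the TPM scale, which is per transcript length. ID1, ID2 and ID3 lay above 95.6% to 96.7% of tested genes in mean level, BAMBI above 77.7%, and the 5 regulators SKI, SMAD6, SMAD7, TGIF1 and SKIL above 66.0% to 45.4%. ID4 lay above 20.0%. In DMSO, SKI (29.3 ± 2.8 TPM) was followed by SMAD6 (21.3 ± 1.4), and SKIL (15.4 ± 3.6), SMAD7 (15.0 ± 3.1) and TGIF1 (13.4 ± 2.2 TPM) did not differ beyond their spread. In NEN, SMAD6 (33.0 ± 2.5 TPM) and SKI (32.0 ± 1.4 TPM) did not differ beyond their spread.

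Among 8074 genes averaging 10 TPM or more, those whose log2(TPM + 1) tracked a member most closely over the 6 libraries were found for the 3 members with the smallest adjusted p. For ID1 they were CCNI, a cyclin-like protein, MARVELD1 and MAZ, a zinc finger factor, with Pearson r of 0.999, 0.998 and 0.998. CCNI stood at 148.4, 124.9 and 126.7 TPM in DMSO and 212.7, 198.6 and 203.9 TPM in NEN, the same order of libraries within each group as for ID1. For SMAD6 they were NHSL2, TBC1D17 and SPRYD3 (r of 0.999, 0.998 and 0.997), and for ID3 NHSL2, UNC5A, a netrin receptor, and SPRYD3 (r of 0.999, 0.997 and 0.996). Between 395 and 450 genes had r above 0.95 with each of the 3, and the points share 1 treatment contrast, so these values are a description. Among the members, ID3 and SMAD6 had r = 0.996 and ID3 and BAMBI r = -0.994 over the same 6 libraries.

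The rest of the pathway was read from 8 lists of 145 genes, each counted once, of which 100 passed the filter. HES1 and HEY1 are both among the bHLH and ID partners and among the other targets. The rise of HES1 thus enters the counts of both lists. Of these 21 rose and 15 fell, 36.0% against 30.0% of all genes tested, with a median difference of 0.073. The share called was 12.5% for ligands, 28.6% for receptors and co-receptors, 16.7% for signal-carrying SMADs and 25.0% for secreted antagonists. It was 21.4% for ubiquitin and phosphatase genes, 44.4% for corepressors and cofactors, 64.7% for bHLH and ID partners and 41.2% for other targets. Over all genes tested, 13.5% rose and 16.5% fell.

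Ligands were mostly too low to test, since 8 of 30 passed the filter, and 1 rose. TGFB1, the most widely expressed TGF-beta, stood at 25.2, 22.5 and 20.4 TPM in DMSO and 39.5, 36.7 and 44.0 TPM in NEN libraries and rose by 0.80 ± 0.11 (limma adjusted p = 0.00233). BMP7, the higher of the 2 BMP genes tested, was at 5.74 ± 1.22 and 5.15 ± 0.84 TPM (adjusted p = 0.636). GDF11, a ligand of the activin arm, had 0.24 ± 0.12 (limma adjusted p = 0.188) and passed without DMSO replicate 1 (0.35), while it was 0.13 without DMSO replicate 3 (adjusted p = 0.437). GDF1, which shares a transcript with CERS1, was listed at or near 0 in DMSO replicates 1 and 2 and NEN replicate 1 and at 2.64, 7.21 and 7.44 TPM in the other libraries. Its difference was 1.42 ± 0.90 (limma adjusted p = 0.275), and it passed without NEN replicate 1 (2.44) and was 0.92 without NEN replicate 2 and 0.90 without NEN replicate 3.

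Of the receptors and co-receptors, 1 of 14 tested rose and 3 fell, with differences from -1.07 to 0.97. BMPR1A, a type I BMP receptor, stood at 13.2, 13.3 and 14.6 TPM in DMSO and 9.81, 7.83 and 9.27 TPM in NEN and fell by 0.56 ± 0.12 (limma adjusted p = 0.0111). RGMA, a BMP co-receptor, fell from 6.51 ± 0.71 to 2.57 ± 0.26 TPM (-1.07 ± 0.15), and TGFBR3, the co-receptor betaglycan, from 3.24 ± 0.64 to 1.32 ± 0.31 TPM. ENG, the co-receptor endoglin, rose from 2.19 ± 0.44 to 4.83 ± 0.96 TPM (0.86 ± 0.19), a call lost without NEN replicate 1 (0.80) or 2 (0.78). The type II receptor BMPR2 was at 18.6 ± 2.0 and 20.2 ± 1.5 TPM (adjusted p = 0.466).

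Among the signal-carrying SMADs, 1 of 6 rose and none fell. SMAD9, which encodes SMAD8 and is itself a BMP target, stood at 35.7, 43.4 and 36.3 TPM in DMSO and 63.7, 67.1 and 63.9 TPM in NEN libraries and rose by 0.75 ± 0.09 (limma adjusted p = 0.00153). SMAD1 was at 18.3 ± 1.7 and 19.1 ± 0.6 TPM, SMAD5 at 26.1 ± 4.1 and 22.5 ± 2.6 TPM and SMAD4 at 35.1 ± 6.1 and 36.2 ± 3.2 TPM. SMAD2 had 0.20 ± 0.10 (limma adjusted p = 0.154) and passed after length and GC correction (0.31). Secreted antagonists had 1 of 8 up and 1 down. FSTL3, which binds activins, rose from 2.23 ± 1.03 to 5.99 ± 2.59 TPM. The call of FSTL3 (1.10) was lost without DMSO replicate 2 (1.16) or 3 (0.83) or NEN replicate 1 (0.83) or 2 (1.10), after quantile normalization (1.08), with no filter, with plain limma settings and after length and GC correction (0.87). SOSTDC1, a BMP and Wnt antagonist, had 0.33 ± 0.13 and passed after that correction (0.44).

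Of the genes for SMAD ubiquitin ligases, deubiquitinases and phosphatases, 2 of 14 rose and 1 fell. PPP1R15A, a phosphatase subunit that SMAD7 brings to the type I TGF-beta receptor and that also acts on eIF2 alpha, rose by 1.65 ± 0.13. USP11, a deubiquitinase, rose from 47.8 ± 5.6 to 66.0 ± 1.8 TPM. USP15, another, fell by 0.34 ± 0.10 (limma adjusted p = 0.0340), a call lost with the replicate block (adjusted p = 0.0824) and on leaving out DMSO replicate 2 (-0.28) or 3 (-0.36) or NEN replicate 2 (-0.27) or 3 (-0.35), among 8 of its 15 alternatives. SMURF1, a ligase that SMAD7 recruits, was at 4.74 ± 0.53 and 4.55 ± 0.13 TPM. The ligase SMURF2 was at 8.45 ± 3.90 and 12.4 ± 5.4 TPM (limma adjusted p = 0.308).

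Of 18 other corepressors, cofactors and endosomal brakes, 4 rose and 4 fell. ZNF423, a zinc finger partner of BMP SMADs, rose from 4.14 ± 0.65 to 8.12 ± 1.13 TPM (0.83 ± 0.16), and PMEPA1, a TGF-beta target that holds back SMAD2 and SMAD3, from 14.1 ± 2.2 to 22.2 ± 3.0 TPM. The corepressor NCOR1 fell by 0.43 ± 0.08 and the coactivator CREBBP by 0.41 ± 0.08.

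**Figure D4:**
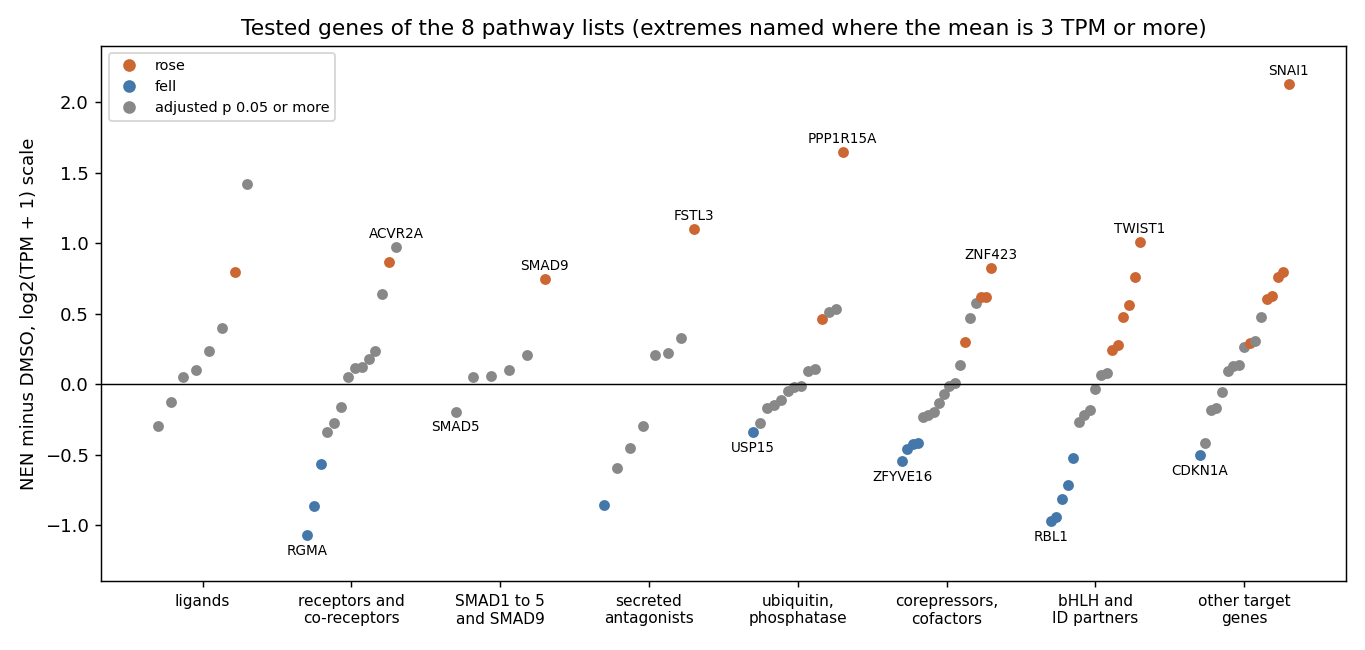
Difference of each tested gene of the 8 pathway lists (points, ordered within a list), the NEN mean less the DMSO mean in log2(TPM + 1); orange rose, blue fell and grey did not pass the test. Both directions are seen among the bHLH and ID partners, from RBL1 (-0.97) to TWIST1 (1.01).

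Of the genes that ID proteins act on or compete with, 6 of 17 tested rose and 5 fell. Among the E proteins, the direct partners, TCF12 rose by 0.24 ± 0.07 (limma adjusted p = 0.0372), and TCF3 was at 101.5 ± 6.9 and 107.8 ± 14.1 TPM and TCF4 at 81.8 ± 4.1 and 70.6 ± 9.6 TPM. The tissue-restricted bHLH factors went both ways. HAND1, a bHLH factor of sympathetic and heart lineages, stood at 660.9, 597.1 and 600.9 TPM in DMSO and 328.8, 318.7 and 318.9 TPM in NEN libraries and fell by 0.94 ± 0.06. HAND2, a core factor of adrenergic neuroblastoma, rose by 0.28 ± 0.05 and TWIST1, a bHLH factor of mesenchyme, by 1.01 ± 0.06. The pocket protein RB1, which ID2 can bind, fell from 34.7 ± 3.8 to 23.8 ± 0.4 TPM, RBL1 fell by 0.97 ± 0.12 and RBL2 rose by 0.56 ± 0.14.

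Other genes known as BMP or TGF-beta targets had 6 of 17 up and 1 down, with a median of 0.261. MSX2, a homeobox target of BMP, stood at 16.5, 14.1 and 16.0 TPM in DMSO and 28.2, 23.6 and 21.0 TPM in NEN libraries and rose by 0.60 ± 0.13. TSC22D1, a TGF-beta-stimulated gene, rose by 0.62 ± 0.09, HES1 by 0.76 ± 0.10, SNAI1 by 2.13 ± 0.14 and SNAI2 by 0.80 ± 0.15. ATOH8, another BMP target, had every NEN library below every DMSO library, at 1.88 ± 0.46 TPM in DMSO and 1.14 ± 0.17 TPM in NEN, and did not pass the test (adjusted p = 0.198). CDKN1A, which TGF-beta induces in epithelial cells, fell by 0.51 ± 0.08. JUNB, an early target of both arms, was at 41.7 ± 3.0 and 45.7 ± 3.1 TPM (adjusted p = 0.292).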

How the data were processed

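RNA-seq of 6 SK-N-BE(2) libraries was used, 3 per group, grouped by the labels' treatment. The deposited TPM values were made by the authors with kallisto with hg19 as the build, per the submitters' processing notes. No version, strand use or way of summing transcripts to genes is stated there. The labels' protocols name both polyA capture and rRNA removal. Genes averaging 1 TPM or more entered limma 3.58.1 (R 4.3.3; trend and robust settings) on log2(TPM + 1), two-sided, with Benjamini-Hochberg adjustment over 12576 genes and a threshold of 0.05. The test was checked on simulated data with independent noise and fewer changed genes than were called here. That check concerns the code and not the calls. All 185 list symbols matched, 2 under an older name. The members and lists were chosen with earlier results of these data known. Named genes were the 10 members, up to 3 per list with the smallest adjusted p, and the closest genes by correlation. Others were chosen after their values were seen. These were TGFBR3, BMPR2, SMAD1, SMAD4, BMP7, SMURF1, SMURF2, PMEPA1, the E proteins, HAND2, RB1, RBL2, MSX2, SNAI2, ATOH8, JUNB, CDKN1A and the markers. The alternatives tried comprised the replicate number as a block, omission of each library in turn, no filter or 5 TPM, median-ratio scaling, quantile normalization, plain limma settings and pseudocounts of 0.1 and 5, and, chosen after seeing the data, a loess correction for transcript length and GC content (GENCODE release 29; 93.4% of tested genes). Results of some list genes, which stay in the counts, are not reported here. Figures used matplotlib 3.10.9 in Python 3.11.15.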

Additional observations from a re-analysis of the deposited data

How the results depend on the processing

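Of the 10 members, 7 were called with all 6 libraries and between 5 and 7 on leaving out each library. The 7 called without NEN replicate 2 included TGIF1 (limma adjusted p = 0.0496) and not SMAD7 (limma adjusted p = 0.0912). Thus no omission of a library kept all 7 original calls. With no filter 5 members were called, with a minimum of 5 TPM (ID4 is then not tested) or plain limma settings 6, and under the other alternatives 7. For ID1, ID3, SMAD6 and BAMBI the call held under all 15 alternatives, and for ID4 under the 14 that tested it. Over the 34 named genes, 463 of 504 values kept direction and side, 34 lost the call, 5 gained it and 2 changed sign: SKI after length and GC correction (-0.073) and SKIL on leaving out each library (-0.312 to 0.018, positive without DMSO replicate 2). Leaving out each library gave ID2/ID3 differences of -0.105 to 0.017 and SMAD6/SMAD7 differences of -0.10 to 0.14, both with sign changes. The replicate numbers did not pair the libraries (correlation of deviations 0.012, -0.008 and -0.028 for numbers 1 to 3). With the replicate block, 7 members, 33 pathway genes and 2977 genes overall were called, against 7, 36 and 3773. Depth is unknown in TPM, so the precision of low genes such as ID4 and GDF1 rests on the replicates alone.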
